A study of Mus musculus with 46 samples.

Results

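Heat shock proteins and their J-domain partners were read in mouse germline stem (GS) cells and in 7 kinds of pluripotent stem cell. The members were all genes whose single symbol in the probe annotation named a heat shock factor (Hsf), an Hsp90, Hsp70, Hsp110, Hsp60, Hsp10 or small heat shock protein, a subunit of the cytosolic chaperonin (Cct2 to Cct8 and related symbols), or a DnaJ protein of class A, B or C. The rule found 85 genes of 19938 measured, each read by its brightest probe set, and used no measured difference. They fell into 4 heat shock factors, 2 Hsp90 genes, 13 Hsp70 and Hsp110 genes, 11 chaperonin genes, 7 small Hsp genes, 4 DnaJA, 13 DnaJB and 28 DnaJC genes. Another 3 genes (Hspb11, Hspbap1, Hspbp1) matched by name only.

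Hsp70 proteins bind unfolded stretches of other proteins in a cycle driven by ATP. DnaJ proteins bring them their clients and switch on ATP hydrolysis, and Hsp110 proteins and other exchange factors reset the cycle. Hsp90, the ring-shaped chaperonins and the small heat shock proteins take clients on or hold them soluble, and heat shock factors switch on the inducible genes through heat shock elements in their promoters. Male germ cells are known for relatives of their own, among them Hspa2, Hspa1l, Dnajb3, Dnajb13 and Dnajc5g.

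The arrays came from 23 lines, each hybridised from 2 cultures. Pluripotent cells that arise from GS cells are called multipotent germline stem (mGS) cells. Lentiviruses that knocked down p53 and Dnmt1 gave 3 Dnmt mGS lines, and lentiviruses against p53 and Dmrt1 gave 3 Dmrt mGS lines. Lentiviral Sox2 with p53 knockdown gave 3 Sox2 mGS lines, and lentiviral Oct4 with p53 knockdown gave 3 Oct4 mGS lines. The 2 mGS lines without a virus had developed spontaneously in GS culture. The 3 iPS lines carried retroviral Oct4, Sox2, Klf4 and c-myc, and there were 3 GS lines. All of these carried a GFP transgene in the DBA/2 strain. The 3 ES lines had other backgrounds: R1, a hybrid of 129 substrains, B6-6, C57BL/6J, and BRC1, (B6xDBA2)x129. Every line grew on fibroblast feeders that were removed by plating on gelatin. GS cells were kept in a serum-poor medium with GDNF and basic FGF, and the pluripotent lines in serum with LIF, so that cell type and medium cannot be told apart.

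The 7 GS markers had an arithmetic mean of 5486 to 6584 intensity units in the GS lines, against 627 to 921 in the 20 pluripotent lines, and 6 of them were higher. Etv5 was the exception, at 1168 units in GS lines and 3397 in pluripotent lines. The 8 pluripotency markers had an arithmetic mean of 161 to 432 units in the GS lines, against 2051 to 4415 in the pluripotent lines. GS 1 stood apart from the other GS lines with the highest of these GS values, 432, against 180 and 161. The feeder score, the mean log2 signal of 20 fibroblast markers returned to intensity units, was 972 in GS 1, 381 in GS 2 and 328 in GS 3. It was 362 to 1786 over Dnmt mGS lines and 365 to 1417.5 over Dmrt mGS lines. Sox2 mGS lines scored 1873 to 2574, Oct4 mGS lines 929 to 2019, and spontaneous mGS lines 423 to 1264. The iPS lines scored 413 to 578 and the ES lines 513 to 1382. The median probe set read 215.4 to 242.5 units on all arrays but culture 1 of Oct4 mGS 1, where it read 264.8. In bulk RNA, fewer cells of a type and less RNA per cell cannot be told apart.

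The members' levels moved little between cultures of a line, with a median difference over the 23 lines of 0.08 (log2) for the median member and 0.20 for the member that differed most. Signal under 161 units, the 95th percentile of 1027 olfactory receptor genes, was taken as background. By that level 80 members were detected in at least 1 group, 66 were detected in all 8 groups, and 5 in none. Where a group mean lay under it, "at least" marks the brighter group's mean divided by the dimmer group's mean with each of its lines counted at 161 units or its own signal, whichever was higher, and the fitted difference is no bound. Group means are geometric, and differences are given as log2 ± SE from a limma fit to all 23 lines with Benjamini-Hochberg adjusted p over all 19938 genes. The fit calls a gene at an adjusted p of 0.05 or less. The cultures are labelled biological replicates without their origin being given, so p-values measure the spread between lines.

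Hspa1a, Hspa1l and Dnajb3 were higher in GS lines, and the small heat shock proteins Hspb1 and Hspb8 were lower. By their brightest probe sets, the abundant Hspa8, Hsp90aa1 and Hsp90b1 differed by 0.10 or less on the log2 scale. Of 85 members, 48 were called in the 3 GS lines against the mean of the 7 pluripotent groups, beside 55.3% of all genes. Of these, 26 were higher in GS lines, beside 33.9% of all genes, and 22 were lower, beside 21.5%. The GS and pluripotent lines did not overlap for 26 members, beside 27.1% of all genes. These shares are near those of all genes, so the number of calls is not a result about chaperones. The median member differed by 0.07, and the median of all genes by 0.10. Among the 48 called, 11 were higher by 1 log2 unit or more, 5 were lower by as much, and 32 moved by less.

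**Figure D1:**
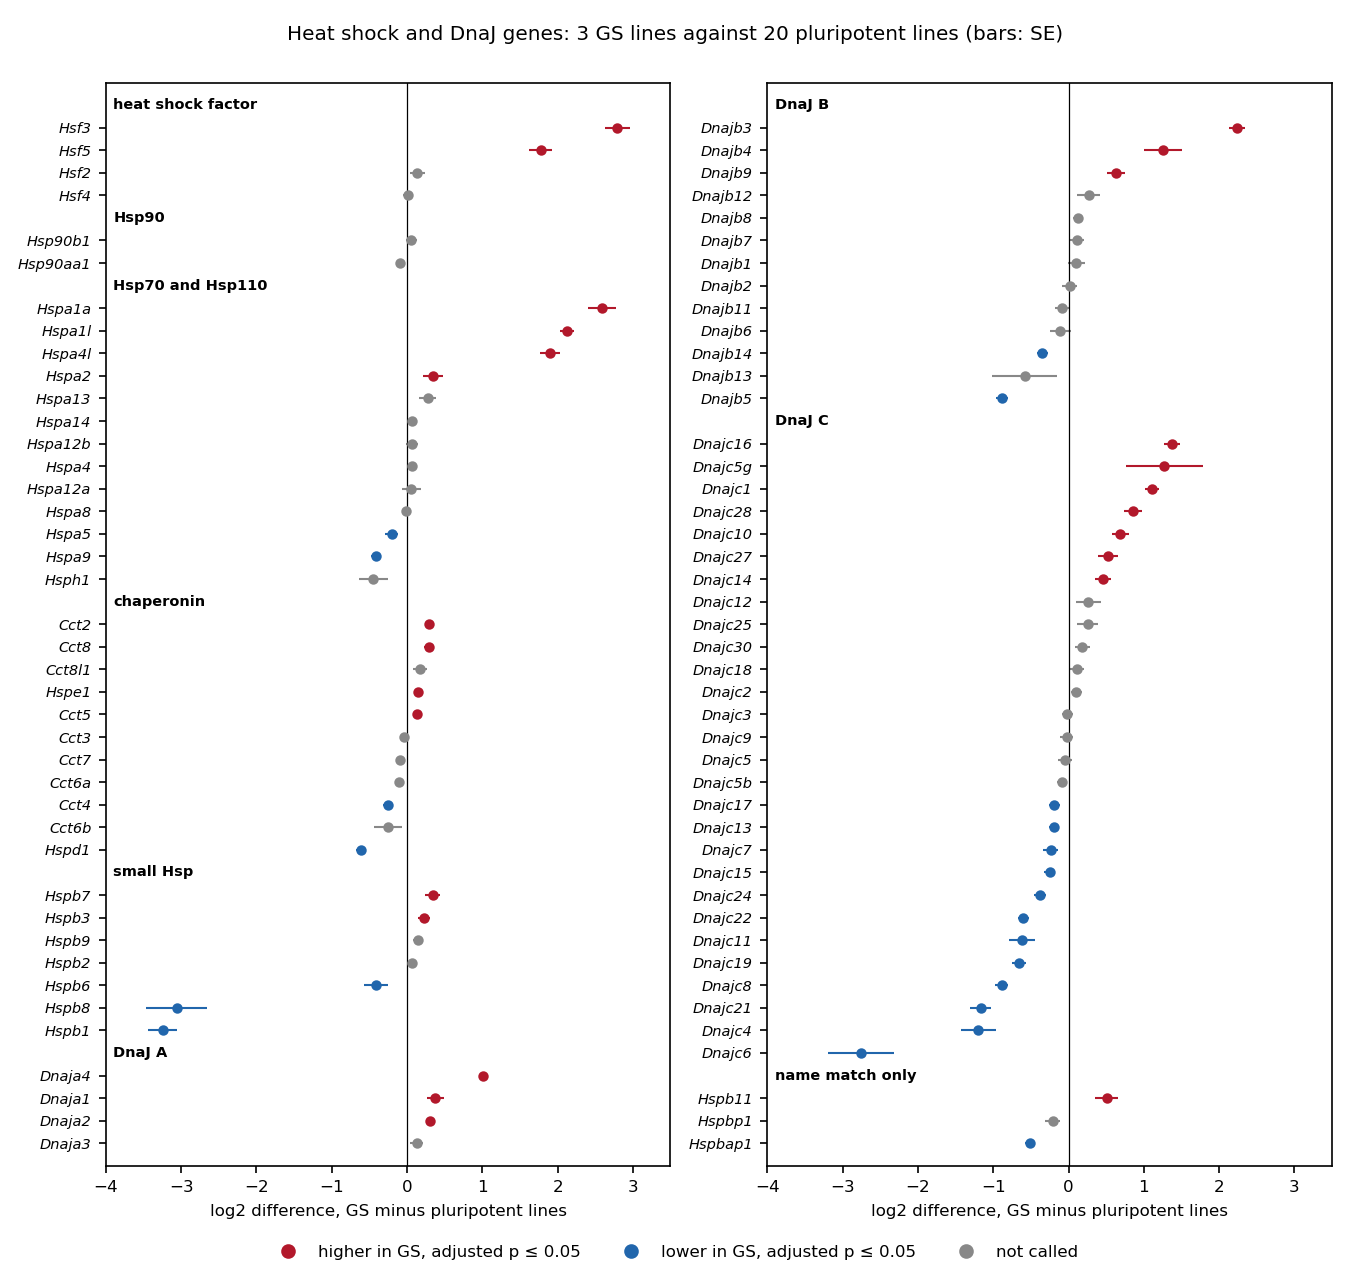
Log2 difference of each of the 85 members, 3 GS lines minus the mean of the 7 pluripotent groups, ordered within each role; points are differences and bars are SE. Red members were higher and blue members lower in GS lines at an adjusted p of 0.05 or less; Hsf3 at 2.80 and Hspb1 at -3.25 are the ends of the range, and Hspa8 and both Hsp90 genes lie near 0.

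Heat shock elements are inverted repeats of a short unit, and they were searched in RefSeq promoter windows (GRCm38.p6, 250 bases before to 50 after a transcript start), which were at hand for 70 members. A 3-unit element, GAANNTTCNNGAA or TTCNNGAANNTTC, lay in 4 of the 70 members (5.71%), against 0.662% of 27025 genes. These were Dnajb6, Hspd1, Hspe1 and Hsph1. Hspd1 and Hspe1 share the same stretch, which is counted for both. A 2-unit element, GAANNTTC or TTCNNGAA, which overlaps the first, lay in 20 members (28.6%), against 17.0% of all genes. A match describes letters and is not a bound site. The sequences below belong to members on which the results turn, 5′ to 3′ on each gene's strand, with the element in capitals:
Hspa1a, chr17:34972242-34972271, minus strand: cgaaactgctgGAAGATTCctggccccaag
Hsf5, chr11:87616968-87616997, plus strand: agaggggccggTTCTGGAAggcacgcgaag
Dnajb4, chr3:152193846-152193870, minus strand: ttcgttcgctgTTCTAGAAagtaca
Dnaja4, chr9:54699458-54699487, plus strand: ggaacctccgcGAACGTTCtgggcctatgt
Dnaja4, chr9:54699496-54699525, plus strand: gcctcctggcgGAACCTTCcgccggcgccg
Hspb1, chr5:135887791-135887820, plus strand: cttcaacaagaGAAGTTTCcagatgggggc
Hspb1, chr5:135887811-135887840, plus strand: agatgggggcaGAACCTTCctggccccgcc
Hspd1, chr1:55088053-55088082, minus strand: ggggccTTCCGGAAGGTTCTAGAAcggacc
Hspe1, chr1:55088053-55088082, plus strand: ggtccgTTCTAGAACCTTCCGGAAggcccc

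Of the heat shock factors, Hsf3 and Hsf5 were higher in GS lines, and Hsf2, known from gametogenesis, and Hsf4, a factor of the lens, were not called. Hsf3, a heat-responsive factor of the mouse, read 170, 251 and 169 units in GS 1, 2 and 3, against 22.7, 25.4 and 66.6 as the lowest, median and highest of the 20 pluripotent lines. No pluripotent line reached background or overlapped a GS line. The GS mean of 193 units was at least 1.20-fold higher, with a fitted difference of 2.80 ± 0.16 (adjusted p = 1.13e-10). Hsf5, a factor of spermatocytes, read 865, 515 and 378 units in the GS lines, against a lowest, median and highest of 124, 163 and 214 in pluripotent lines. Its difference was 1.78 ± 0.15 (adjusted p = 1.35e-08), with no overlap, and 1.45 without GS 1. The Hsf5 means of spontaneous mGS, iPS and ES lines lay under background. Hsf2 averaged 1418 units in GS lines and 1288 in pluripotent lines, and Hsf4 averaged 349 and 345 units in the same order. Their differences of 0.14 ± 0.10 and 0.02 ± 0.06 were not called. Hsf1 was not analysed here.

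Of the 13 Hsp70 and Hsp110 genes, 4 were higher and 2 lower in GS lines, and Hspa1a, Hspa1l and Hspa4l had the highest differences. Hspa1a, the stress-inducible Hsp70, read 3206, 1544 and 1734 units in GS 1, 2 and 3, against 232, 342 and 498 as the lowest, median and highest pluripotent line. Every GS line exceeded the brightest pluripotent line, and the difference was 2.59 ± 0.18 (adjusted p = 1.22e-09), or 2.27 without GS 1. Its near-identical copy Hspa1b can share these probes. The probe set annotated to both averaged 2367 units in GS lines and 732 in pluripotent lines, a difference of 1.69.

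Hspa1l, the testis Hsp70 that lies 547 bases from Hspa1a on chromosome 17, read 381, 312 and 255 units in GS lines, against 60.1, 71.3 and 86.5 as the lowest, median and highest pluripotent line. All 20 pluripotent lines lay under background, so the GS mean of 312 was at least 1.93-fold higher (fitted difference 2.13 ± 0.09, adjusted p = 2.21e-12). Hspa4l, an Hsp110 relative known from testis, read 1216, 938 and 967 units in GS lines, against 203, 266 and 406 in the lowest, median and highest pluripotent line. It differed by 1.90 ± 0.13 (adjusted p = 9.97e-10), again with no overlap. Hspa2, the Hsp70 of meiotic chromosomes, was called at 300.2 units in GS lines and 236 in pluripotent lines. That difference of 0.34 ± 0.14 (adjusted p = 0.043) overlapped between lines and was lost under 15 alternative settings.

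Hspa8, Hsp90aa1 and Hsp90b1 differed little by their brightest probe sets. Hsp90ab1 was not analysed here. Hspa8, the constitutive cytosolic Hsp70, averaged 9551 units in GS lines and 9677 in pluripotent lines, and its SD of 0.06 (log2) over the pluripotent lines was the lowest of all members. Its difference of -0.02 ± 0.05 was not called, while quantile normalization gave -0.18 with an adjusted p of 0.0023. The other probe sets of Hspa8 gave -0.05 and -0.21, and those annotated also to Snord14c and Snord14d gave -0.99. Hsp90aa1, the inducible cytosolic Hsp90, averaged 7676 and 8202 units (-0.10 ± 0.05, adjusted p = 0.12), and was called at -0.14 after quantile normalization (adjusted p = 0.027). The other probe sets of Hsp90aa1 gave -0.10 and -0.14. Hsp90b1, the Hsp90 of the endoplasmic reticulum (ER), averaged 4553 and 4376 units, 0.06 ± 0.07 apart.

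Hspa9, the mitochondrial Hsp70, was lower in GS lines, with 4024, 3433 and 3411 units against 4326, 4817 and 5798 in the lowest, median and highest pluripotent line. No lines overlapped, and the difference was -0.41 ± 0.06 (adjusted p = 1.54e-05). Hspa5, the ER Hsp70 known as BiP, averaged 3958 units in GS lines and 4555 in pluripotent lines (-0.20 ± 0.08, adjusted p = 0.047), a call lost under 20 alternative settings. Hsph1, the Hsp110 with a 3-unit element, was not called at 1101 units in GS lines and 1504 in pluripotent lines (-0.45 ± 0.19, adjusted p = 0.057), but was after quantile normalization (adjusted p = 0.039). Hspa4, Hspa12a, Hspa12b, Hspa13 and Hspa14 were not called either, at 0.06 to 0.27.

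Hspd1 and Hspe1, which encode the Hsp60 and Hsp10 of the mitochondrial chaperonin, went apart although they start head to head and share the element of 3 units or more printed above. Hspd1 read 3170, 3293 and 3289 units in GS lines, against 4266, 4847 and 5822 in the lowest, median and highest pluripotent line. Its difference was -0.61 ± 0.06 (adjusted p = 2.61e-07) with no overlap, and -0.86 by its other probe set. Hspe1 read 5191, 4758 and 4852 units in GS lines, against 3862, 4458 and 5108 in pluripotent lines, which overlap. It was slightly higher at 0.15 ± 0.06 (adjusted p = 0.026), a call lost without GS 1 at 0.12. Processed copies of both genes may share their probes.

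The subunits of the cytosolic chaperonin, which folds actin and tubulin, moved by small amounts in both directions. Cct2 averaged 6534 units in GS lines and 5325 in pluripotent lines (0.30 ± 0.06, adjusted p = 0.00043), and Cct8 averaged 3477 and 2838 (0.29 ± 0.07, adjusted p = 0.0012), both with no overlap. Cct5 was higher by 0.13 ± 0.05 and Cct4 lower by -0.25 ± 0.07, both with overlapping lines, and Cct4 lost its call without GS 1 at -0.17. Cct3, Cct6a and Cct7 were not called at -0.10 to -0.04, nor were the testis form Cct6b (-0.25 ± 0.18) and Cct8l1, which was under background in every group.

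Of the small heat shock proteins, 2 had the lowest differences of all members, and the rest were dim or moved little. Hspb1, the general Hsp27 (Hsp25 in mice) that keeps stressed proteins soluble, read 577, 456 and 443 units in GS 1, 2 and 3, against 1635, 4990 and 7828 as the lowest, median and highest pluripotent line. The GS mean of 489 units was 9.49-fold lower than the pluripotent mean of 4638 (-3.25 ± 0.20, adjusted p = 1.86e-10), and its other probe set gave -3.31. Hspb8, a partner of Bag3 in the selective removal of damaged proteins, read 214, 59.4 and 69.4 units in the GS lines, against 470, 697 and 1931 units. GS 2 and GS 3 lay under background and GS 1 did not, so pluripotent lines at 801 units were at least 4.52-fold higher than GS lines. The fitted difference was -3.06 ± 0.41 (adjusted p = 4.25e-06), or -3.64 without GS 1, whose pluripotency and feeder marker levels were also the highest of the GS lines. Hspb6 was lower by -0.42 ± 0.16 and lost its call with the feeder score as a covariate (-0.18). Hspb7 and Hspb3 were called higher while both group means were under background, and Hspb2 and Hspb9 were not called.

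**Figure D2:**
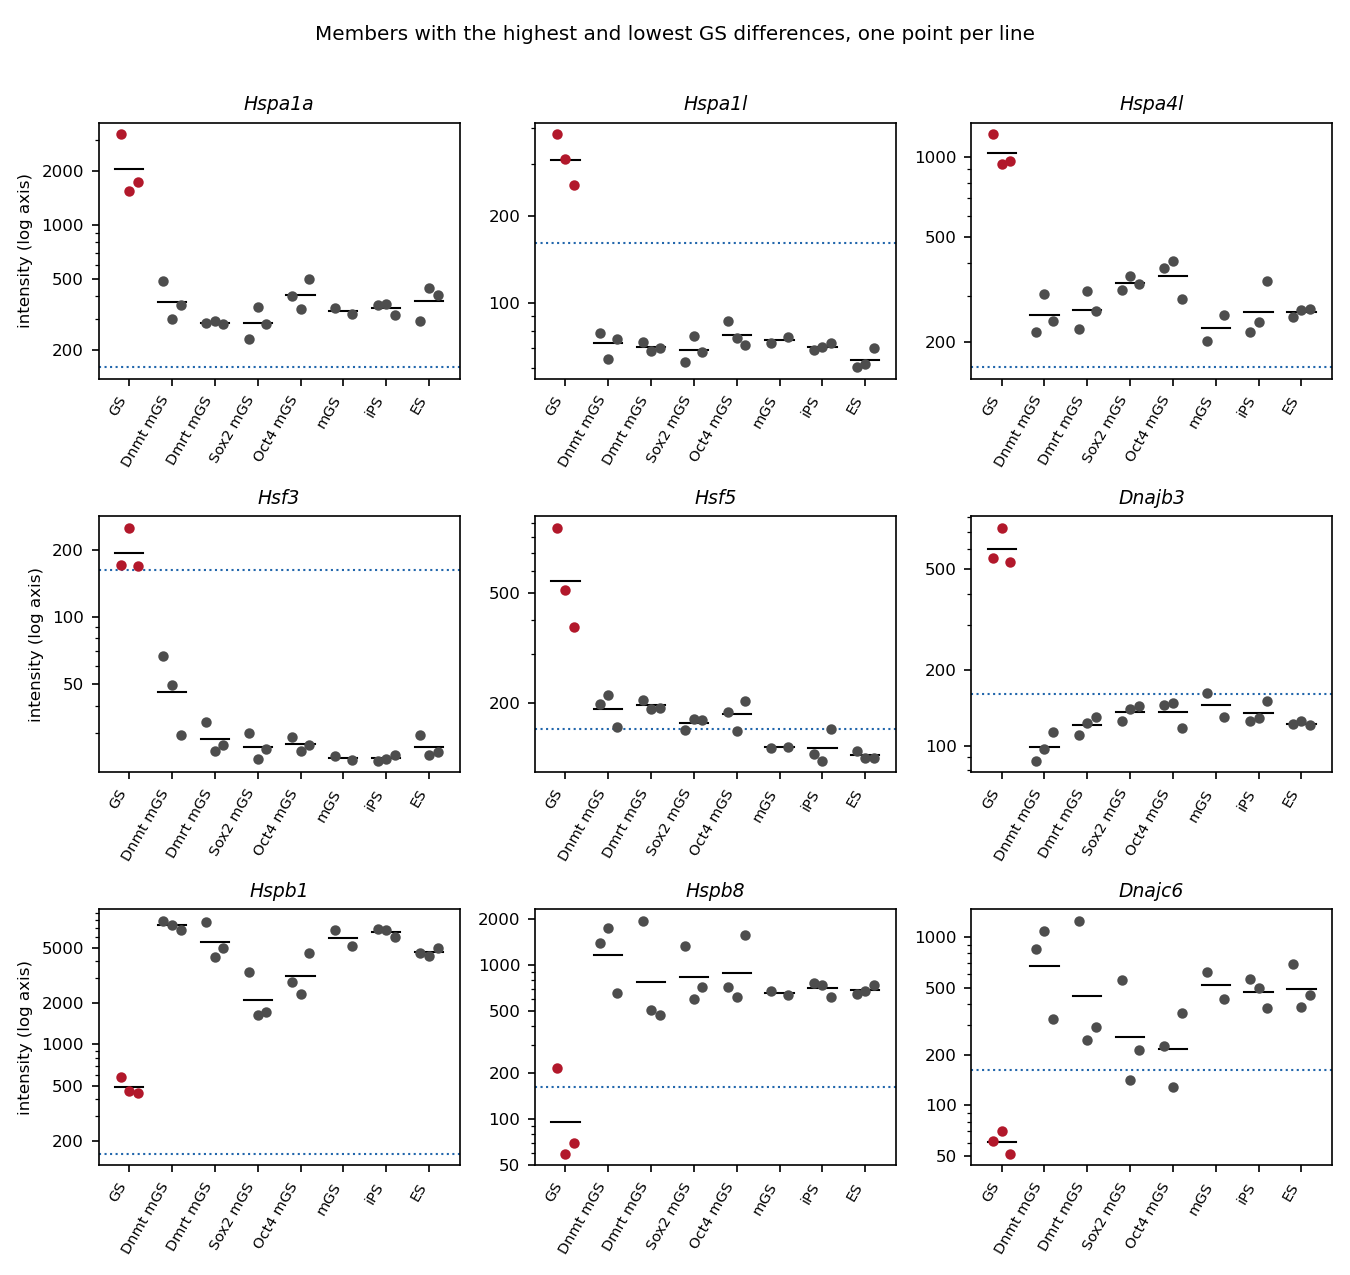
Intensity by line (log axis) of 9 members with the highest or lowest GS differences, GS lines in red at the left and the 7 pluripotent groups after them; bars are geometric group means and the dotted line is the background level of 161 units. The 3 GS lines stand above every pluripotent line for the upper 6 members and below every one for Hspb1, Hspb8 and Dnajc6.

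Among class A DnaJ proteins, the main Hsp70 partners of the cytosol, Dnaja4 read 379, 375 and 375 units in GS lines, against 160, 188 and 231 in the lowest, median and highest pluripotent line. It was higher by 1.02 ± 0.06 with no overlap (adjusted p = 5.55e-11). Dnaja2 was higher by 0.31 ± 0.05, and the mitochondrial Dnaja3 was not called. Dnaja1 was higher by 0.37 ± 0.11, but its second probe set ran the other way at -0.12, and the call was lost without GS 1 (0.32, adjusted p = 0.053).

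In class B, Dnajb3, a spermatid protein known as MSJ-1, read 552, 729 and 532 units in GS lines, against 87.5, 126 and 161.5 in the lowest, median and highest pluripotent line. All pluripotent lines but the highest, mGS 1, lay under background, and the GS mean of 599 units was at least 3.71-fold higher (fitted difference 2.24 ± 0.10, adjusted p = 2.99e-12). Dnajb4, an inducible cytosolic partner of Hsp70, read 1727, 897 and 868 units in GS lines, against 214, 404 and 1290 in pluripotent lines, and these overlapped. It was higher by 1.25 ± 0.25 (adjusted p = 0.00040) and by 0.93 without GS 1.

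Dnajb9, the ER protein ERdj4, averaged 2250 units in GS lines and 1452 in pluripotent lines (0.63 ± 0.12, adjusted p = 0.00032), with no overlap. Dnajb5 averaged 210.5 and 388.5 units (-0.88 ± 0.08, adjusted p = 2.18e-08), and Dnajb14, anchored in the ER membrane, was lower by -0.35 ± 0.07. Dnajb1, the classical Hsp40 partner of inducible Hsp70, was not called at 924 units in GS lines and 861 in pluripotent lines (0.10 ± 0.12). The other 7 class B genes, among them the testis forms Dnajb7, Dnajb8 and Dnajb13, were not called. With the feeder score as a covariate Dnajb13 was lower in GS lines, at -1.20 (adjusted p = 0.0068).

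Class C, whose members carry a J domain in otherwise unlike proteins, held 7 members higher and 12 lower in GS lines. The higher ones were led by Dnajc16, an ER membrane protein, with 1163, 1435 and 1332 units in GS lines, against 333, 472 and 984 in the lowest, median and highest pluripotent line (1.37 ± 0.11, adjusted p = 4.48e-09). The ER proteins Dnajc1 and Dnajc10 (ERdj5) were higher by 1.11 ± 0.09 and 0.69 ± 0.11, with no overlap of lines. Dnajc28 averaged 216.5 units in GS lines and lay under background in pluripotent lines, apart from Dnmt mGS 2 at 163.5, a difference of at least 1.34-fold. Dnajc27 was higher by 0.52 ± 0.13, and Dnajc14 by 0.46 ± 0.10. Dnajc5g, the testis form of cysteine string protein, was called at 1.27 ± 0.51 (adjusted p = 0.043) on overlapping lines, but at 0.58 (adjusted p = 0.28) with the feeder score as a covariate. Its pluripotent mean lay under background, with some pluripotent lines above it, so that these fitted differences are no bounds.

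The lower end of class C was led by Dnajc6, auxilin, which strips clathrin coats from vesicles. It read 61.4, 70.5 and 51.6 units in GS lines, all under background, against 128, 405.5 and 1243 in the lowest, median and highest pluripotent line. Pluripotent lines averaged 411 units, at least 2.55-fold higher (fitted difference -2.76 ± 0.44, adjusted p = 3.45e-05). Dnajc4 averaged 242 units in GS lines and 555 in pluripotent lines (-1.20 ± 0.24, adjusted p = 0.00030). Dnajc21, a factor of ribosome assembly, averaged 546 and 1227 units (-1.17 ± 0.14, adjusted p = 1.70e-06). Dnajc8, a splicing factor, was lower by -0.89 ± 0.08, and the mitochondrial import protein Dnajc19 by -0.66 ± 0.09.

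The mitochondrial Dnajc11 was lower by -0.61 ± 0.17 and Dnajc22 by -0.60 ± 0.08, the second under background in both groups. Dnajc24, an enzyme cofactor of diphthamide synthesis, was lower by -0.38 ± 0.08, and 4 others (Dnajc7, Dnajc13, Dnajc15, Dnajc17) by -0.25 to -0.19. Dnajc13, the endosomal protein RME-8, had 15 probe sets, and all were lower, by -0.63 to -0.18. Of the genes that match by name only, Hspb11, a subunit of ciliary transport trains, was higher by 0.50 ± 0.16 and by 0.33 without GS 1, where it was not called. Hspbap1 was lower by -0.51 ± 0.07, and the Hsp70 exchange factor Hspbp1 was not called.

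In all, 33 of the 48 calls held under every alternative setting that tested them, and 15 were lost under at least 1. The fit with the clone number as a replicate block left out the ES lines and was not run for this comparison. Members among the dimmest genes were not tested where those genes were left out. Without GS 1, 39 members were called. Of 10 markers of spermatocytes and spermatids, 5 or 6 were above background in each GS line and 3 to 6 in each pluripotent line. Their mean signal was 183 to 218 units in GS lines, against 129 to 226 in pluripotent lines. The fit called 5 of them higher, with Sycp3 at 430 units in GS lines and 109 in pluripotent lines (1.99 ± 0.45), while Prm2, Tnp1, Tnp2, Acrv1 and Pgk2 were not called. Of 7 testis somatic cell markers 0 were called by limma, with 1 (Amh, under background) at an unadjusted p under 0.05. The part that meiotic cells have in Hspa1l, Dnajb3, Hspa2 and Hsf5 was not tested.

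The partners of these chaperones moved both ways, but each list held more genes lower than higher. These counts are to be read beside 33.9% of all genes higher and 21.5% lower. Of 27 Hsp70 and Hsp90 co-chaperones, 12 were lower and 3 higher, with a median of -0.26. Sugt1, an Hsp90 adaptor, averaged 499 units in GS lines and 1558 in pluripotent lines (-1.64 ± 0.15), and St13, the Hsp70-interacting protein Hip, averaged 1337 and 2809 (-1.07 ± 0.09). Hyou1, the Hsp110 relative of the ER, was higher by 0.81 ± 0.06. Of 15 chaperonin partners, 8 were lower and 3 higher with a median of -0.44, led by the prefoldin subunits Vbp1 (-1.73 ± 0.11) and Pfdn4 (-1.38 ± 0.06). The list of chaperonin partners also named Tcp1, a subunit of the cytosolic chaperonin that the symbol rule left out of the members.

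Of 22 genes of ER folding and the unfolded protein response, 12 were lower and 4 higher with a median of -0.32. Herpud1 averaged 377 units in GS lines and 1197 in pluripotent lines (-1.67 ± 0.17), Sdf2l1 differed by -1.26 ± 0.14 and Atf4 by -1.13 ± 0.10, while the stress sensor Ern1 was higher by 0.78 ± 0.11. Of 13 mitochondrial folding and protease genes, 6 were lower and 4 higher, with the import receptor Tomm20 at -1.44 ± 0.11 and the disaggregase Clpb at 0.80 ± 0.09. All genes together had a median of 0.10.

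The next comparisons ask how far each kind of conversion took the chaperones away from the GS state. All 5 were set against the same 3 GS lines, so their values are given side by side and are not independent. Dnmt mGS lines had 42 members called (18 higher, 24 lower), beside 49.1% of all genes (19.1% higher, 30% lower). Dmrt mGS lines had 39 (16 higher, 23 lower), beside 41.6% (17.6% higher, 24.1% lower). Sox2 mGS lines had 40 (18 higher, 22 lower), beside 44% (19.4% higher, 24.6% lower). Oct4 mGS lines had 42 (22 higher, 20 lower), beside 42.9% (20.2% higher, 22.6% lower). The spontaneous mGS lines had 36 (16 higher, 20 lower), beside 43.1% (16.2% higher, 26.9% lower). These shares are near those of all genes. Median centring of every array turned the Sox2 mGS split to 13 higher and 25 lower.

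Hspb1 averaged 7293 units in Dnmt mGS lines, 5483 in Dmrt mGS lines, 2109 in Sox2 mGS lines, 3106 in Oct4 mGS lines and 5849 in spontaneous mGS lines, against 489 in GS lines. The differences from GS lines were 3.90 ± 0.26, 3.49 ± 0.26, 2.11 ± 0.26, 2.67 ± 0.26 and 3.58 ± 0.29 in that order, and all were called. Hspa1a averaged 373 units in Dnmt mGS lines, 285 in Dmrt mGS lines, 283 in Sox2 mGS lines, 408 in Oct4 mGS lines and 332 in spontaneous mGS lines, against 2048 in GS lines. Its differences lay between -2.86 and -2.33, all called. Hspa1l, Hspa4l, Dnajb3, Hsf3 and Hsf5 were lower than in GS lines in all 5 types, by -3.05 to -1.49. Hspb8 and Dnajc6 were higher in all 5, by 1.83 to 3.61, and Hspd1 by 0.48 to 0.67. Fitted differences of Hspb8 and Dnajc6 (GS mean under background) and of Hspa1l, Dnajb3 and Hsf3 (the 5 types under background) are no bounds. The same holds for Hsf5 in spontaneous mGS lines, whose mean was under background.

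Dnajb4 differed between the types. It averaged 428 units in Dnmt mGS lines, 418 in Dmrt mGS lines, 1129 in Sox2 mGS lines, 536 in Oct4 mGS lines and 294 in spontaneous mGS lines, against 1104 in GS lines. Sox2 mGS lines were not called at 0.03 ± 0.33 (adjusted p = 0.95), and the other types were lower by -1.91 to -1.04. Of 20 feeder markers, 16 were higher in Sox2 mGS lines than in GS lines, with a median difference of 2.07, against 2 to 7 higher in the other types. The part that feeder RNA has in these Dnajb4 values was not tested. Dnajc16 was lower in all 5 types, by -1.55 to -0.72, with the smallest difference in Dnmt mGS lines (795 units against 1305).

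**Figure D3:**
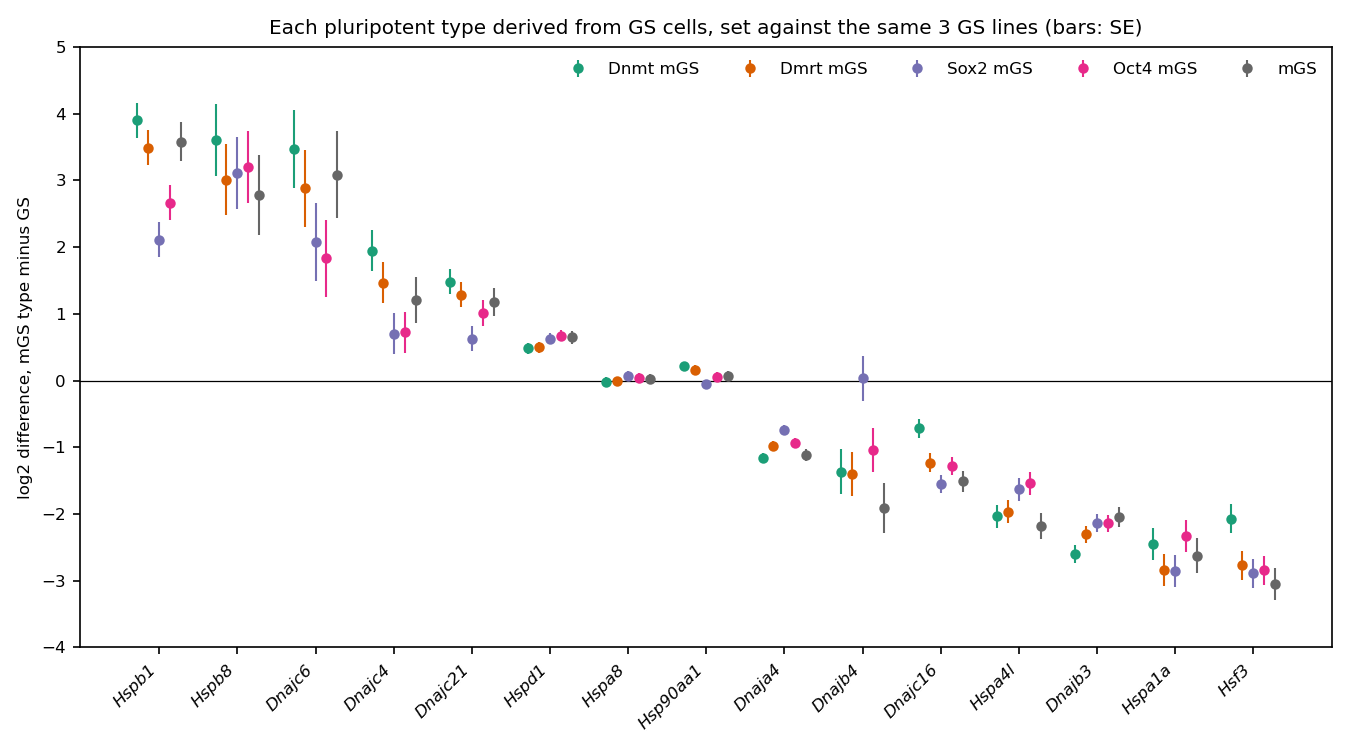
Log2 difference of 15 members in each of the 5 pluripotent types derived from GS cells, each minus the same 3 GS lines; points are differences and bars are SE. Hspb1, Hspb8 and Dnajc6 lie above 0 and Hspa1a, Hsf3 and Dnajb3 below -2 in all 5 types, Hspa8 stays near 0, and Dnajb4 is near 0 only for Sox2 mGS lines.

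The pluripotent types were next compared with iPS lines, which share their strain and medium. Spontaneous mGS lines had 0 of 85 members called by limma against iPS lines, beside 0% of all genes, and 0 at an unadjusted p under 0.05; 2 mGS lines entered. The iPS lines had 0 members called by limma against ES lines, beside 0.627% of all genes, with 9 at an unadjusted p under 0.05. The lowest adjusted p there was for Dnajb2, with 364 units in iPS lines and 259 in ES lines (0.49 ± 0.13, adjusted p = 0.099). Leaving out ES R1 gave 5 calls. ES lines differ from iPS lines in strain as well as in kind.

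Dnmt mGS lines had 9 members called against iPS lines (4 higher, 5 lower), beside 6.87% of all genes (4.18% higher, 2.68% lower). Dnajc16 read 984, 742 and 688 units in the Dnmt mGS lines, against 418, 431 and 475 in the iPS lines, with no overlap (0.85 ± 0.14, adjusted p = 0.0027). Dnajb9, the ER protein that binds BiP, read 933, 1078 and 931 units in Dnmt mGS lines, against 1968, 1919 and 1664 in iPS lines (-0.92 ± 0.16, adjusted p = 0.0048). Dnajc9, which chaperones histone H3, was lower in Dnmt mGS lines by -0.52 ± 0.11 and in Dmrt mGS lines by -0.56 ± 0.11 (adjusted p = 0.013 and 0.026).

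For Dmrt mGS lines Dnajc9 was the 1 member called against iPS lines, beside 0.848% of all genes (0.492% lower), with 696 units in Dmrt mGS lines and 1025 in iPS lines. It was not called with any 1 iPS line or any 1 Dmrt mGS line left out (-0.59 to -0.51). The Dnmt mGS count fell to 2 without Dnmt mGS 1 or iPS 2 and to 3 without iPS 1, and Dnajb9 and Dnajc16 were called without Dnmt mGS 1 or iPS 2. The other Dnmt mGS calls were Hsf3, Dnajc1 and Dnajc22 (higher) and Dnajb3, Hspa14 and Cct5 (lower), by less than 1 in size. Hsf3 and Dnajb3 were under background in both groups. After median centring of the arrays the split was 2 higher and 6 lower.

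Sox2 mGS lines had 19 members called against iPS lines (10 higher, 9 lower), beside 23.6% of all genes (14.4% higher, 9.22% lower). Hspb1 read 3329, 1635 and 1724 units in Sox2 mGS 1, 2 and 3, against 6841, 6672 and 5935 in the iPS lines, with no overlap (-1.62 ± 0.26, adjusted p = 0.00066). Dnajb4 read 1175, 950 and 1290 units in Sox2 mGS lines, against 306, 285 and 338.5 in iPS lines (1.87 ± 0.33, adjusted p = 0.0013). Feeder scores moved with these differences, at 2386, 1873 and 2574 in Sox2 mGS lines, against 413, 510 and 578 in iPS lines, and 12 of 20 feeder markers were higher. Of 8 pluripotency markers, 4 were lower in Sox2 mGS lines than in iPS lines and 0 higher, with a median of -1.28. The part that this weaker pluripotency signal has in the Hspb1 values was not tested. With the feeder score as a covariate, 7 members were called, Dnajb4 at 0.99 (adjusted p = 0.046) and Hspb1 at -1.29 (adjusted p = 0.021).

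Among the others in Sox2 mGS lines, Dnaja4 was higher by 0.46 ± 0.07, Dnajc25 by 0.69 ± 0.18, the ER-associated Hspa13 by 0.62 ± 0.16 and Dnajc1 by 0.54 ± 0.12. Dnajc21 was lower by -0.68 ± 0.19, Dnajc8 by -0.61 ± 0.11, Dnajb6 by -0.59 ± 0.19 and Dnajc9 by -0.42 ± 0.11. Dnajb6 was dim, at 191 units in Sox2 mGS lines and 288 in iPS lines. Brighter probe sets annotated also to Gm4247 were not used. In GS against pluripotent lines these gave 0.19 to 0.21, while the one used gave -0.11. The count was 12 without iPS 1 or Sox2 mGS 3. Each array centred on its median gave 6 higher and 14 lower, and moved the median of all genes to -0.05, against 0.10 as deposited.

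Oct4 mGS lines had 15 members called against iPS lines (12 higher, 3 lower), beside 13.8% of all genes (10.4% higher, 3.43% lower). Hspb1 read 2823, 2324 and 4570 units in Oct4 mGS lines, under every iPS line (-1.06 ± 0.26, adjusted p = 0.017). It was not called with the feeder score as a covariate (-0.83, adjusted p = 0.060) or without Oct4 mGS 1, Oct4 mGS 2, iPS 1 or iPS 2 (-1.04 to -0.85). Feeder scores were 2019, 1619 and 929 in the Oct4 mGS lines. The 8 pluripotency markers had an arithmetic mean of 2573, 2197 and 3841 units there, against 3486 to 4415 in iPS lines. Hspbp1, a nucleotide exchange factor of Hsp70, averaged 1556 units in Oct4 mGS lines and 1029 in iPS lines (0.60 ± 0.12, adjusted p = 0.0079). Hspa12a, Dnajc18 and Dnajb11 were higher by 0.43 to 0.54, Hspb7 was called higher with both group means under background, and Dnajc8 and Hspa14 were lower by -0.46 and -0.26.

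This count rested on single lines, with 2 members called without Oct4 mGS 1, 3 without Oct4 mGS 2, 3 without iPS 2, 5 without iPS 1 and 8 without iPS 5. Centring each array on its median left 1 higher and 5 lower, quantile normalization 3 and 3. The median of all genes was 0.12 as deposited and -0.03 after centring.

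Set against the mean of the other 3 induced routes, Dnmt mGS lines had 22 members called (13 higher, 9 lower), beside 19.2% of all genes (8.85% higher, 10.4% lower). Sox2 mGS lines had 12 (5 higher, 7 lower), beside 14.2% (5.99% higher, 8.16% lower), and Oct4 mGS lines had 3, all higher, beside 1.06% (0.813% higher). Dmrt mGS lines had 0 called by limma, beside 0.316% of all genes, with 14 at an unadjusted p under 0.05. The Dnmt mGS count was 4 without Dnmt mGS 1 and 7 without Dnmt mGS 2. The Sox2 mGS count was 2 without Sox2 mGS 3, 7 without Sox2 mGS 2 and 19 without Dnmt mGS 3. The Oct4 mGS count was 0 without Oct4 mGS 1 or Oct4 mGS 2, 1 without Sox2 mGS 3, 5 without GS 1, 6 without Oct4 mGS 3 and 7 without ES R1.

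The germ cell forms Dnajb13 and Dnajc5g were the members that varied most among pluripotent lines. Over 20 pluripotent lines the median member had an SD of 0.19 (log2), and 7 members exceeded 0.5. Dnajb13, a protein of sperm flagella, read 548, 1210 and 353 units in Dnmt mGS 1, 2 and 3 and 1201 in Dmrt mGS 1. The other 16 pluripotent lines lay between 106 and 284 units, and GS lines read 156, 159 and 132. Its difference, 616 units in Dnmt mGS lines against 190 in the other routes, was 1.70 ± 0.46 (adjusted p = 0.020), or 1.09 with the feeder score as a covariate (adjusted p = 0.064), and the call was lost without Dnmt mGS 1 (1.78, adjusted p = 0.082) or Dnmt mGS 2 (1.21, adjusted p = 0.14).

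Dnajc5g read 446, 559 and 364.5 units in the Dnmt mGS lines, 374 in Dmrt mGS 1, 418 in Oct4 mGS 3 and 382 in ES R1. The other 14 pluripotent lines read 54.1 to 201 units. The mean of the other routes was under background with Dmrt mGS 1 and Oct4 mGS 3 above it, and Dnmt mGS lines at 449.6 units were at least 2.29-fold higher (fitted difference 2.16 ± 0.55, adjusted p = 0.015), on overlapping lines. The call was lost with the feeder score as a covariate (1.47, adjusted p = 0.051) and without Dnmt mGS 1 (2.16, adjusted p = 0.080) or Dnmt mGS 2 (2.00, adjusted p = 0.072). Dmrt mGS 1 and Oct4 mGS 3 also stood out among lines of their route for Hspb8, at 1931 and 1556 units. Dnajc6 read 1243 units in Dmrt mGS 1 against 246 and 292 in the other Dmrt mGS lines, and Dnajc4 read 1146 against 480 and 547. Dmrt mGS 1 had a feeder score of 365, against 1417.5 and 1193 in Dmrt mGS 2 and 3. Dnmt mGS 1 and 2, the brighter Dnmt mGS lines for Dnajb13, scored 634 and 362, against 1786 in Dnmt mGS 3. The iPS lines scored 413 to 578 and read 188 to 222 units for Dnajb13.

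Hspb1 was higher in Dnmt mGS lines than in the other routes by 1.14 ± 0.21 (adjusted p = 0.0035) and lower in Sox2 mGS lines by -1.24 ± 0.21 (adjusted p = 0.0016), with overlapping lines in both. Both calls held with the feeder score as a covariate, at 1.01 (adjusted p = 0.014) and -1.06 (adjusted p = 0.017). In the same comparisons the 8 pluripotency markers had a median difference of 0.87 for Dnmt mGS lines and -0.94 for Sox2 mGS lines. Dnajb4 in Sox2 mGS lines exceeded every line of the other routes, by 1.30 ± 0.27 (adjusted p = 0.0057), or 0.81 with the feeder score as a covariate (adjusted p = 0.045), and was not called without Sox2 mGS 3 (1.21, adjusted p = 0.057). Dnajc22 was lower in Sox2 mGS lines by -0.59 ± 0.08 (adjusted p = 0.00045), at levels under background in both groups. In Oct4 mGS lines the 3 called members were Dnajc24 (0.44 ± 0.08), Dnajc17 (0.33 ± 0.07) and Cct5 (0.27 ± 0.05).

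**Figure D4:**
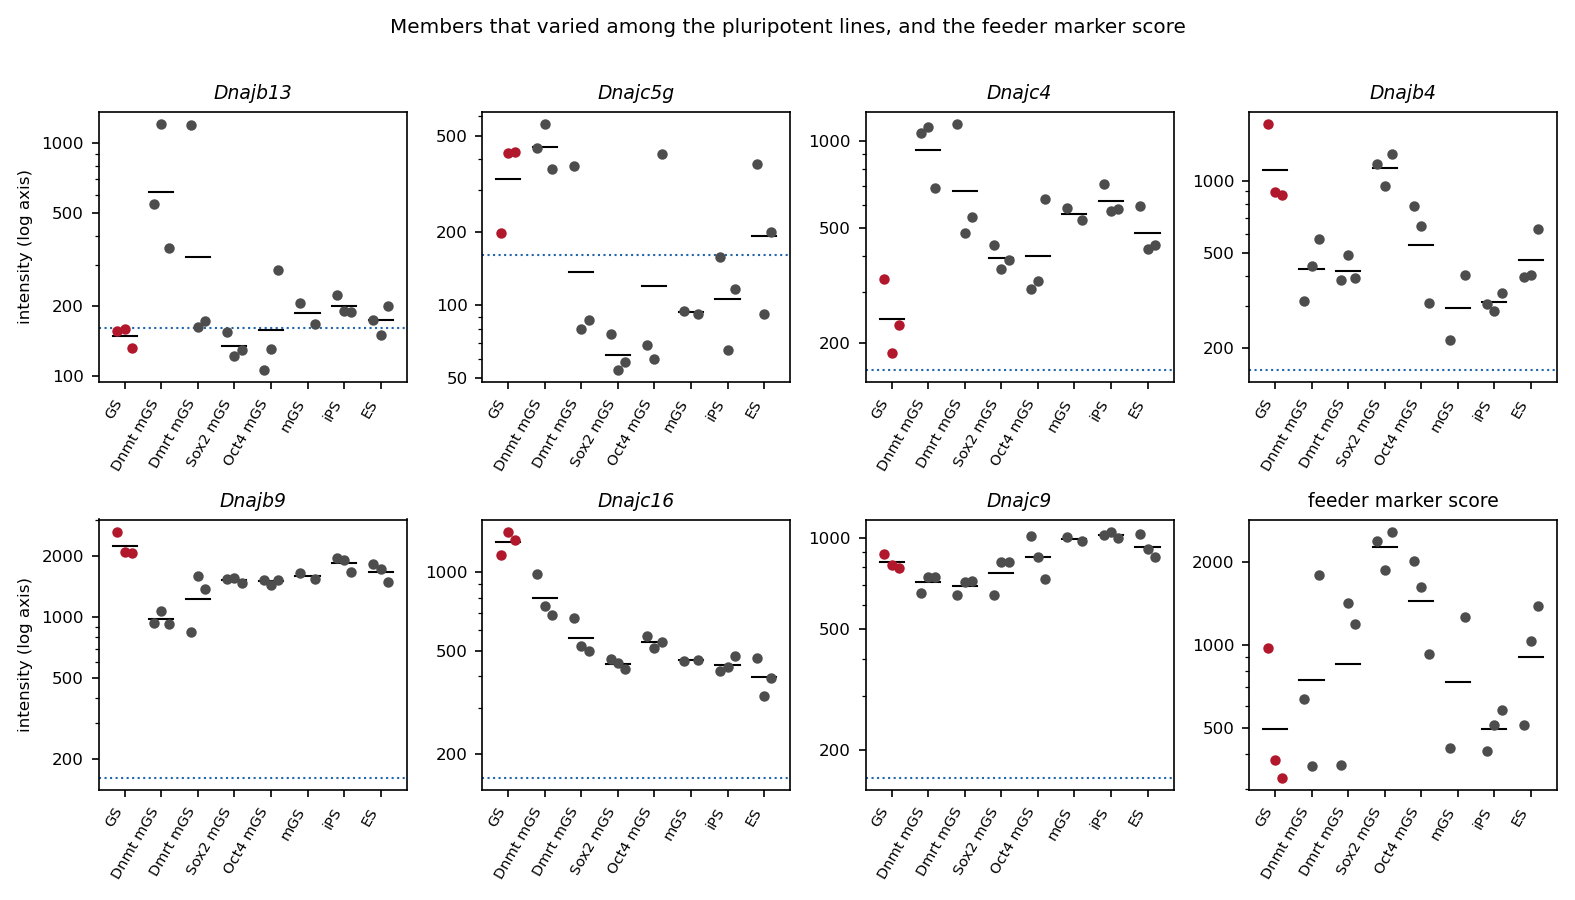
Intensity by line (log axis) of 7 members that differed among pluripotent groups, with the feeder score in the last panel; GS lines are red, bars are geometric group means and the dotted line is the background level of 161 units. Dnajb13 is high in the Dnmt mGS lines and Dmrt mGS 1, and Dnajb4 in the Sox2 mGS lines. Feeder scores of the Sox2 mGS lines, 1873 to 2574, exceed those of all other lines but Oct4 mGS 1, at 2019.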

How the data were processed

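RNA of 46 cultures from 23 mouse lines was labelled per the labels' protocols and hybridised to whole-transcript arrays. The authors deposited linear intensity per probe set. The submitters' processing notes name mm9, while no scaling step is stated in them or in the labels. No value was rescaled or offset before log2 of the deposited intensity was taken. Of 28856 probe sets, 21789 had 1 symbol, 1621 had several and 5446 had none in the annotation. The first kind was used, with the brightest probe set for 999 genes that had more than 1. 8 members had several probe sets, and 10 further probe sets listed a member beside another symbol. Cultures were averaged per line, and all 23 lines entered a fit with limma 3.58.1 in R 4.3.3 (lmFit, eBayes, 15 residual and 2.71 prior degrees of freedom), adjusted by Benjamini-Hochberg within each comparison. The fit was tested on simulated data, where it called 73.9%, 96.6% and 93.2% of genes changed 1.5, 2 and 4 fold in GS against pluripotent lines. At 1.5 fold it called 38.3% in mGS and 55.2% in Sox2 mGS against GS. For Sox2 mGS it called 62.7% against iPS and 64.9% against the other routes. The first simulation changed only 69, 58 and 73 of 19938 genes at these folds, which limits the precision of the shares. In the data 55.3% of all genes were called there, so the simulated setting differs. Figures and tables were made in Python 3.11.15.

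The members and the lists of partner and marker genes were chosen with earlier results of these data known. Members named are the heat shock factors, up to 4 called members with the highest and 4 with the lowest difference per role in GS against pluripotent lines, and up to 5 each way in the other comparisons. The others are given by value or count. Alternatives were another normalization, arrays as units, replicate blocks, a filter on dim genes, eBayes with a trend, the compared groups alone, the mean of probe sets and each line left out. The feeder score as a covariate, and Oct4 mGS 1 from culture 2 alone, were chosen after seeing the data.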

Additional observations from a re-analysis of the deposited data

Results flagged for a closer look

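The 4 induced routes were compared under the same contrast against GS lines, and 23 results for named members were singled out. In each, a route's difference itself passed the limma test against the mean of the other 3 routes. Further members that passed this test were left out by the limit on named members given with the processing. No group held enough lines for a test of single outlying lines. In Dnmt mGS lines the log2 differences of the members named were 2.16 for Dnajc5g, 1.70 for Dnajb13, 1.14 for Hspb1, 0.98 for Dnajc4 and 0.76 for Hsf3, which was under background. On the lower side they were -0.62 for Dnajc27, -0.53 for Dnajb9, -0.43 for Hspa13, -0.41 for Dnajc24 and -0.41 for Dnajb3, also under background. In Sox2 mGS lines they were 1.30 for Dnajb4, 0.54 for Hspa13, 0.53 for Dnajc27, 0.46 for Dnajc25 and 0.28 for Dnaja4. On the lower side they were -1.24 for Hspb1, -0.63 for Dnajc21, -0.59 for Dnajc22, -0.48 for Dnajc16 and -0.41 for Dnajc8. In Oct4 mGS lines they were 0.44 for Dnajc24, 0.33 for Dnajc17 and 0.27 for Cct5. The feeder score differed between these routes, and its part in these results was not tested beyond the fit with the score as a covariate.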

How the results depend on the processing

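Comparisons were recomputed under up to 35 alternative settings, of which 23 left out a line. The clone number as a replicate block was not run for GS against pluripotent lines or iPS against ES, which use the ES lines. Members among the dimmest genes were not tested under the setting that left those genes out. No result for a named member changed from one called direction to the other, and 58 of the 149 called results for named members lost their call under at least 1 setting. In order of setting, the member counts that moved by over 1.5 times were as follows. With all 46 arrays as independent samples, 8 members were called in iPS against ES (0 in the reported fit). In the comparisons with iPS lines this gave 29 for Dnmt mGS (reported 9), 15 for Dmrt mGS (1), 35 for Sox2 mGS (19) and 39 for Oct4 mGS (15). Against the other routes it gave 39 for Dnmt mGS (22), 13 for Dmrt mGS (0), 40 for Sox2 mGS (12) and 29 for Oct4 mGS (3). With the line as a random block these were 2 in iPS against ES, 15 and 2 in Dnmt and Dmrt mGS against iPS, and 1, 22 and 8 in Dmrt, Sox2 and Oct4 mGS against the other routes. Deviations of same-numbered cultures had a median r of 0.0025 over 253 pairs (-0.438 to 0.389). Those of same-numbered clones had a median r of 0.085 over 52 pairs (-0.645 to 0.795). Clones of other numbers had -0.002 over 119 pairs (-0.832 to 0.752). Single pairs spread so widely that these values cannot decide whether the numbers pair samples. With the culture number as a replicate block the counts were 2 in iPS against ES, 14 and 2 in Dnmt and Dmrt mGS against iPS, and 1, 22 and 8 in Dmrt, Sox2 and Oct4 mGS against the other routes. With the clone number as a replicate block, in a fit without the ES lines, the counts were 4, 0 and 6 in Dnmt, Dmrt and Oct4 mGS against iPS. Fitting only the groups compared gave 4, 0, 33 and 4 in Dnmt, Dmrt, Sox2 and Oct4 mGS against iPS, and 11 and 0 in Dnmt and Oct4 mGS against the other routes. With the feeder score as a covariate, Dnmt, Dmrt, Sox2 and Oct4 mGS against iPS had 17, 2, 7 and 6, and Dnmt and Sox2 mGS against the other routes had 9 and 4. Quantile normalization gave 6 in Oct4 mGS against iPS and 1 in Oct4 mGS against the other routes. Centring on the median gave 2 and 6 in Dmrt and Oct4 mGS against iPS and 0 in Oct4 mGS against the other routes, where eBayes with a trend gave 5. Leaving out 1 line gave 38 to 51 for GS against pluripotent lines. Against GS lines it gave 26 to 38 for mGS, 37 to 44 for Dnmt mGS, 35 to 42 for Dmrt mGS, 33 to 43 for Sox2 mGS and 37 to 46 for Oct4 mGS. It gave 0 to 5 for iPS against ES. Against iPS lines it gave 0 to 0 for mGS, 2 to 13 for Dnmt mGS, 0 to 1 for Dmrt mGS, 12 to 20 for Sox2 mGS and 2 to 22 for Oct4 mGS. Against the other routes it gave 4 to 27 for Dnmt mGS, 0 to 0 for Dmrt mGS, 2 to 19 for Sox2 mGS and 0 to 7 for Oct4 mGS. Under the settings that kept all lines, GS against pluripotent lines ranged from 41 to 60 calls. The cause of these moves was not tested. Members under background have no measured level there, and n counts 2 or 3 lines a group.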
